A study of Homo sapiens with 6 samples.

Results

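The response shared by 2 compounds, Drug_0120 and Drug_CN27, was followed in 22Rv1 cells as the set of genes that both compounds moved the same way and by a similar amount. A gene belonged to it when all 4 treated libraries lay on the same side of both vehicle libraries and when its 2 changes against vehicle, on the log2(TPM + 1) scale, differed by no more than 0.5. TPM is a transcript abundance corrected for transcript length and scaled to a common total per library. Of 13606 genes tested, 4752 met both conditions (34.9%), 3001 of them higher (22.1%) and 1751 lower (12.9%) after treatment. Those that also changed by at least 1 log2, or 2-fold, with each compound are called strong shared genes here, and they numbered 491 (3.61%), of which 283 rose (2.08%) and 208 fell (1.53%). Both compounds were read against the same 2 vehicle libraries, so any deviation of those libraries entered both changes with the same sign. The values that chose the genes are the values described, and they are given without p-values.

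The series measured polyadenylated RNA in 22Rv1, an established human prostate carcinoma line that expresses the androgen receptor, and its title names histone H1-10, listed here under the older symbol H1FX, as the target of the small molecules. The 3 groups had 2 libraries each, one group given Vehicle, one given Drug_0120 (0120-0018 in the treatment protocol) and one given Drug_CN27. Each compound was used at its IC50 concentration, and neither that concentration nor the duration is given in the sources used here. No genotype other than that of the line and no further agent is labelled, and all 3 groups are a single cell line.

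Entry into mitosis is driven by cyclin B and its kinase, and the genes for spindle, kinetochore and cytokinesis proteins are transcribed together late in the cell cycle through promoter elements known as the cell cycle homology region and the CCAAT box. Ribosome assembly in the nucleolus is transcribed largely under MYC, which binds E-box sequences. Amino acid shortage, mitochondrial damage or unfolded protein raise translation of ATF4, a transcription factor whose targets include ATF3, DDIT3 and TRIB3. Autophagy receptors such as SQSTM1 deliver tagged cargo to the lysosome and are themselves transcribed under stress-responsive factors.

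The 2 libraries of each group lay close together, with a correlation of log2 values across genes of 0.994 to 0.996. Pairs of values are the 2 libraries of a group, and where treated pairs carry no name Drug_0120 comes first. Between 12554 and 13138 genes reached 1 TPM per library. The TPM values of the listed genes fell short of the full total, with 18.1 to 19.6% of the total outside the table in the vehicle and Drug_CN27 libraries and 28.0 to 28.8% in the Drug_0120 libraries. The median gene changed by −0.10 with Drug_0120 and by 0.15 with Drug_CN27 on the log2 scale, and by 0.003 and −0.008 after median-of-ratios scaling. Of 15 markers of luminal prostate epithelium, 14 were at 1 TPM or more in every library, with summed levels of 3130 and 3140 TPM in vehicle, 2120 and 2100 with Drug_0120 and 3510 and 3500 with Drug_CN27. Among markers of other cells, KRT5 and KRT14 of basal epithelium, FAP of fibroblasts and MS4A1, CD3D and CD3E of lymphocytes were listed at 0 in all 6 libraries, and none of the 9 leukocyte markers reached 1 TPM in every library. Of 7 basal markers 2 reached 1 TPM in every library, and the summed level was 31.0 and 28.0 TPM in vehicle, 79.3 and 78.6 with Drug_0120 and 31.5 and 31.7 with Drug_CN27. Of 14 neuroendocrine markers 9 did so, with sums of 912 and 992 TPM, 461 and 474 TPM, and 895 and 903 TPM in the same order. Of 9 fibroblast markers 2 reached 1 TPM in every library. The part of these differences in the shared response was not tested. In RNA from bulk cultures, fewer cells of a type and less RNA per cell cannot be told apart.

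All 4 treated libraries lay above both vehicle libraries for 4403 genes (32.4%) and below both for 3760 (27.6%). A further 1402 of the genes above and 2009 of those below had changes more than 0.5 log2 apart and so did not count as shared. Among these unequal genes, 1009 of the rises and 1942 of the falls were larger with Drug_0120, and 393 and 67 were larger with Drug_CN27. Calls against vehicle by limma, a linear model with moderated variance, at a Benjamini-Hochberg adjusted p under 0.05, rest on the same values as the selection, so they support nothing about the shared genes and are given for whole lists only, as a description. The median strong shared rise was 1.39 log2 with Drug_0120 and 1.26 with Drug_CN27, and the median strong shared fall was −1.49 and −1.34. Without the similarity condition, 501 genes were at least 1 log2 higher with each compound (3.68%) and 581 at least 1 log2 lower (4.27%). The same model called the contrast between the compounds for 117 of the strong rises and 96 of the strong falls. The similarity condition uses that contrast too, so these calls are a description only. Over all tested genes that contrast called 51.7% higher and 23.5% lower with Drug_CN27 than with Drug_0120. The changes were also taken with each compound against a different vehicle library, while the condition on sides still used both vehicle libraries. Strong shared rises then numbered 287 or 259 and strong shared falls 221 or 205, depending on which library went with which compound. These counts therefore do not remove the shared vehicle from the rule. With 4 libraries against 2, the smallest two-sided exact permutation p for a single gene is 0.133.

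**Figure D1:**
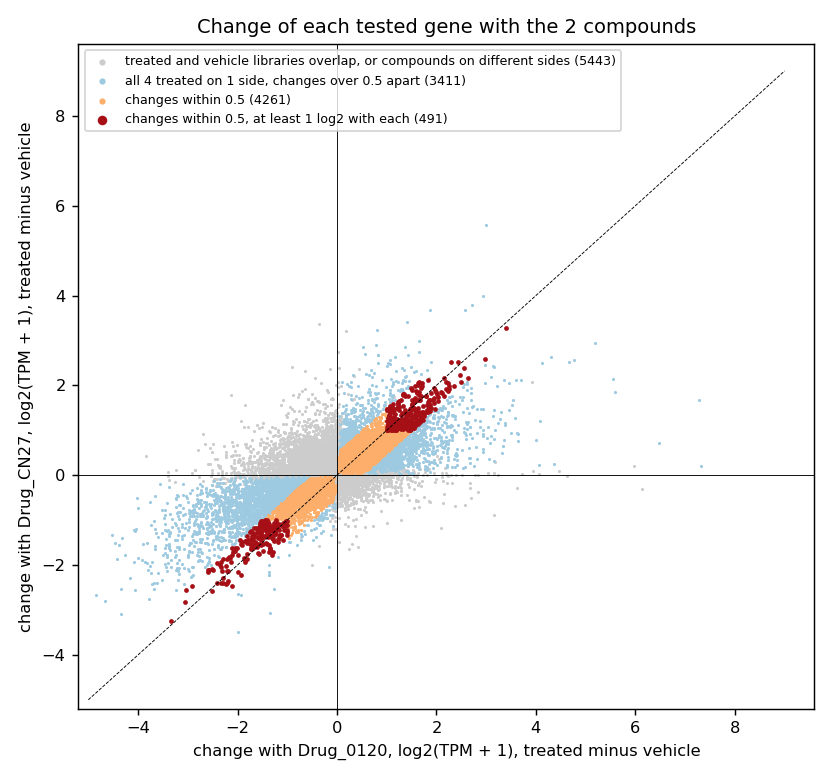
Change of each of 13606 tested genes against vehicle with Drug_0120 (horizontal axis) and with Drug_CN27 (vertical axis), both as differences of log2(TPM + 1), with points coloured by whether the treated libraries lay on 1 side of vehicle and how far apart the 2 changes were. The 491 strong shared genes lie along the dashed line of equal change, as the similarity condition required. The 3411 same-side genes with changes over 0.5 apart extend further along the Drug_0120 axis than along the other. Both axes use the same 2 vehicle libraries.

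Genes of cell division gave the largest shared falls. CCNB1, which encodes cyclin B1, the regulatory subunit that takes cells into mitosis, was at 246 and 246 TPM in vehicle, at 23.2 and 23.8 TPM with Drug_0120 and 26.1 and 24.3 TPM with Drug_CN27. Its treated libraries were near each other and far below vehicle, with changes of −3.33 and −3.24 log2 (SE 0.06 each). FAM83D, a spindle protein, went from 57.0 and 59.0 TPM to 5.98 and 6.23 TPM with Drug_0120 and 7.90 and 6.79 TPM with Drug_CN27. TACC3, which holds the microtubules of spindle fibres together, was at 231 and 241 TPM in vehicle, at 37.3 and 39.4 TPM with Drug_0120 and 52.0 and 53.1 TPM with Drug_CN27, so that the 2 compounds' libraries did not overlap either. CENPF, an outer kinetochore protein, went from 55.8 and 50.7 TPM to 8.32 and 7.56 TPM and to 12.6 and 10.5 TPM in the same order. CENPA, the histone H3 variant that marks centromeres, was at 28.4 and 31.4 TPM in vehicle, at 4.85 and 6.70 TPM with Drug_0120 and 5.09 and 4.57 TPM with Drug_CN27. In this gene the 4 treated libraries were interleaved, and both changes, −2.20 and −2.41 log2, had an SE of 0.14.

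Of 90 tested genes in a list of mitosis genes, limma called 88 lower and 1 higher after treatment, against 37.9% and 40.3% of all tested genes. All 4 treated libraries were below both vehicle libraries for 86 of the 90, but only 20 had changes within 0.5 log2, and in the other 66 the fall was larger with Drug_0120. Strong shared falls numbered 15 as deposited and 22, 24 and 18 with median-of-ratios, quantile and rescaled values. The list's median change was −2.36 log2 with Drug_0120 and −1.27 with Drug_CN27, beside −0.10 and 0.15 over all tested genes. The 15 included KIF18A, a kinesin that limits chromosome oscillation, KIF23, a kinesin of the central spindle, SGO1 and SGO2, which protect cohesion at centromeres, INCENP of the chromosomal passenger complex, and FOXM1, a transcription factor of late cell cycle genes. KIF23 went from 47.9 and 47.7 TPM to 9.10 and 8.15 TPM with Drug_0120 and 11.7 and 10.8 TPM with Drug_CN27. FOXM1 itself went from 141 and 139.9 TPM to 60.8 and 58.3 TPM and to 68.0 and 66.6 TPM in the same order, a smaller fall than those of the kinesin. MKI67, the proliferation marker Ki-67, was on the same side in all 4 libraries without counting as shared, since it went from 64.0 and 57.1 TPM to 6.05 and 5.32 TPM with Drug_0120 but to 13.5 and 12.4 TPM with Drug_CN27.

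Promoter sequence is shown for 4 of the strong shared mitosis genes because promoters of mitosis genes often hold 2 short elements. The sequences are RefSeq's, build GRCh38.p14, from 250 bases before to 50 after the annotated start of the first-listed transcript, 5′ to 3′ on the gene's strand. Capitals mark TTTGAA or TTCGAA (the letters searched for the cell cycle homology region) and CCAAT (the CCAAT box), with ATTGG and TTCAAA their forms on the other strand.
CCNB1, chr5:69166900-69167199, plus strand: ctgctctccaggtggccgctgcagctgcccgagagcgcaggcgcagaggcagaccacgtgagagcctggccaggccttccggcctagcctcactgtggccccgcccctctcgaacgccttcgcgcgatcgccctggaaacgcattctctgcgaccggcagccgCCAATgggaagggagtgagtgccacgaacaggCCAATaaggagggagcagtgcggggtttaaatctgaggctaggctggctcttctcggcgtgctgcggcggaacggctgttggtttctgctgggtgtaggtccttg
CENPA, chr2:26785806-26786105, plus strand: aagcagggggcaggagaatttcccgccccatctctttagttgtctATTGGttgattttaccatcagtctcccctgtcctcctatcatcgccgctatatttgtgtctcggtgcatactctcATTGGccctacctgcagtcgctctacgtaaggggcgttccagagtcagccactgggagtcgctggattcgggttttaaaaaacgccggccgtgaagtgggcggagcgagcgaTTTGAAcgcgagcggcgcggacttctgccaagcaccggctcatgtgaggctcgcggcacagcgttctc
KIF18A, chr11:28108107-28108406, minus strand: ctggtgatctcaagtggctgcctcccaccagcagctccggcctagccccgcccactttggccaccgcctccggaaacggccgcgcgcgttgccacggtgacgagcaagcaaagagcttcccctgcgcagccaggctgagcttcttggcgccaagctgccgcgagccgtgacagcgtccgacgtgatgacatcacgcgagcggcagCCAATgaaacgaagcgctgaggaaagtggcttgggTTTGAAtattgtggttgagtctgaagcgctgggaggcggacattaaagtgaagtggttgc
KIF23, chr15:69414099-69414398, plus strand: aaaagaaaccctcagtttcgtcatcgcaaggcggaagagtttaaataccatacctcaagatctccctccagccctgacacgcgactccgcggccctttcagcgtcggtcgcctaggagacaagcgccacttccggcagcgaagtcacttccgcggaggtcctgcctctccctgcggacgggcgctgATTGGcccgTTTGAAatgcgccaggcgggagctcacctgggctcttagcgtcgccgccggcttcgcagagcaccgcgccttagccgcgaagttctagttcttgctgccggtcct
In CENPA, KIF18A and KIF23 a TTTGAA match stood at −18, −10 and −55 bases from the start, and the window of CCNB1 held 2 CCAAT matches and none of the homology region letters. Among the 15 strong shared mitosis genes, 13 had a promoter in the table, and 8 of these (61.5%) held the homology region letters on either strand and 10 (76.9%) held CCAAT. Over all 75 tested mitosis genes with a promoter the shares were 70.7% and 73.3%, so the strong shared members did not stand out within the list. In the promoters of tested genes the shares were 10.9% and 37.0%, and over all 27305 listed promoters they were 16.6% and 35.7%. The searched patterns did not overlap one another in these windows, and a match is a description of the letters only.

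Genes of DNA replication also moved one way, but mostly by unequal amounts. Of 73 tested, limma called 72 lower and 0 higher, beside 37.9% and 40.3% of all tested genes. All 4 treated libraries lay below vehicle for 69 (94.5%, beside 27.6%). With median-of-ratios scaling 30 were shared, where the share of all tested genes was 17.6%. With TPM as deposited 19 were shared (26.0%, beside 12.9% of all tested genes). The 6 strong shared members were POLA2, a subunit of the primase complex, DSCC1 of an alternative clamp loader, CHAF1B, a histone chaperone that follows the fork, LIG1 and FEN1, which join and trim Okazaki fragments, and GINS4 of the replicative helicase. DSCC1 showed nearly equal levels with both compounds, from 31.1 and 29.9 TPM in vehicle to 10.3 and 10.2 TPM with Drug_0120 and 10.5 and 9.40 TPM with Drug_CN27. LIG1 lay close to the similarity limit, from 95.6 and 90.7 TPM to 27.4 and 30.3 TPM and to 38.9 and 42.7 TPM in the same order. In homologous recombination and Fanconi repair, 15 of 40 tested genes were shared falls (37.5%, beside 12.9% of all tested genes) and 2 were shared rises (5.0%, beside 22.1%). BLM, the helicase altered in Bloom syndrome, went from 12.6 and 11.5 TPM to 4.72 and 4.32 TPM and to 5.06 and 4.49 TPM, and EME1, a subunit of a structure-specific nuclease, from 38.6 and 38.4 TPM to 16.9 and 17.5 TPM and to 14.4 and 15.2 TPM.

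Among regulators of cyclin-dependent kinases, 2 inhibitors moved in opposite directions with both compounds. CDKN2C, an inhibitor of the cyclin D kinases, fell from 51.0 and 54.3 TPM in vehicle to 7.87 and 8.16 TPM with Drug_0120 and 11.1 and 11.6 TPM with Drug_CN27. CDKN1B, the inhibitor p27, rose from 62.5 and 58.5 TPM to 129.6 and 127 TPM with Drug_0120 and 135 and 129 TPM with Drug_CN27, and the treated libraries of the 2 compounds overlapped. Its changes were 1.07 and 1.11 log2 (SE 0.06 each). CDKN1A, the inhibitor p21, rose with both but far more with Drug_0120, from 342 and 357 TPM to 1762 and 1820 TPM, against 692 and 716 TPM with Drug_CN27, and is therefore no shared gene. In all, 3 of 23 tested genes of this list were shared rises (13.0%) and 4 were shared falls (17.4%). Over all tested genes these shares were 22.1% and 12.9%.

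**Figure D2:**
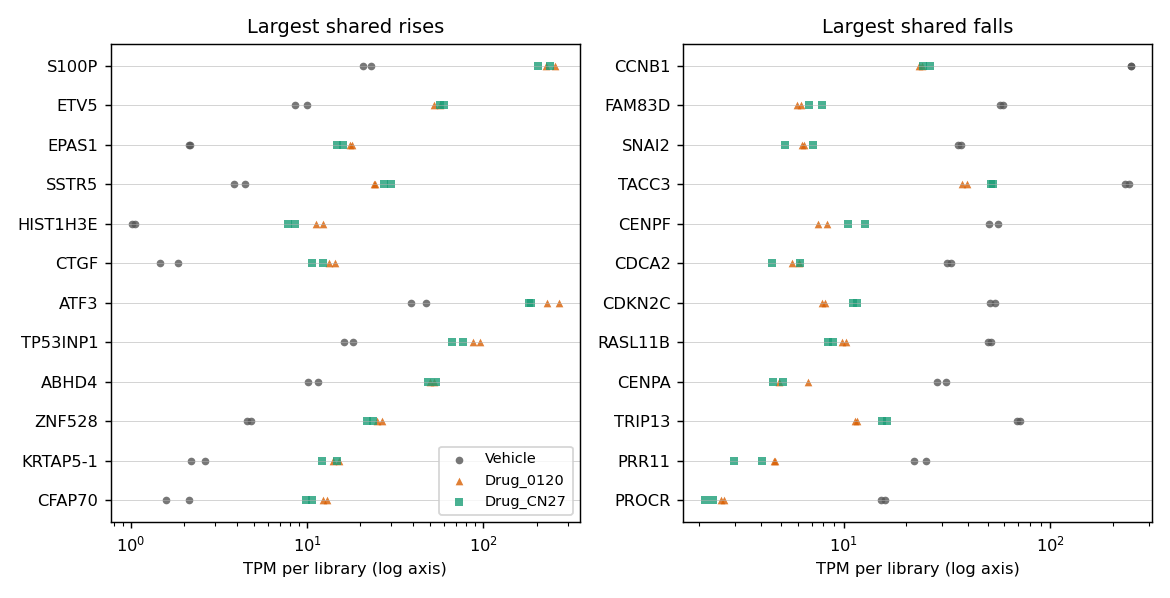
TPM in each of the 6 libraries (log axis) for the 12 largest strong shared rises (left) and the 12 largest strong shared falls (right) with a mean of at least 5 TPM and a gene symbol that is not a clone name, each point being 1 library. In every row the 4 treated libraries stand apart from both vehicle libraries, as the rule that chose the genes required. Vehicle levels run from CCNB1 at 246 TPM to HIST1H3E at 1.02 and 1.06 TPM.

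The other leading falls belong to varied functions. SNAI2, a transcriptional repressor of epithelial genes, went from 35.7 and 37.0 TPM in vehicle to 6.47 and 6.29 TPM with Drug_0120 and 7.14 and 5.23 TPM with Drug_CN27. RASL11B, a small GTPase of the RAS family, went from 50.1 and 51.7 TPM to 10.3 and 9.87 TPM and to 8.40 and 8.85 TPM. PROCR, the endothelial protein C receptor, went from 15.8 and 15.1 TPM to 2.57 and 2.63 TPM and to 2.35 and 2.13 TPM. In RASL11B and PROCR all Drug_CN27 libraries were below all Drug_0120 libraries, the reverse of what most mitosis genes showed. TRIP13, an ATPase that disassembles checkpoint complexes, CDCA2, which brings a phosphatase to mitotic chromatin, and PRR11 complete the 12 largest falls, with changes of −2.08 to −2.51 log2 per compound. PRR11 met the strong definition with TPM as deposited but with none of the 3 other scalings tried.

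MYC and the genes of ribosome biogenesis made up a second shared fall, with a larger share within the 0.5 log2 limit than the cell cycle lists. Small changes meet that limit more easily than large ones. With the smaller change at least 0.7 of the larger, 14 of 52 genes were shared falls (26.9%). By that rule 29 of 90 mitosis genes (32.2%) and 15 of 73 DNA replication genes (20.5%) were shared falls, as were 856 of all 13606 tested genes. Of 52 tested genes limma called 40 lower and 5 higher, beside 37.9% and 40.3% of all tested genes. Shared falls numbered 29 (55.8%, beside 12.9% of all tested genes) and shared rises 2 (3.85%, beside 22.1%). The list's median change was −0.48 log2 with Drug_0120 and −0.55 with Drug_CN27, and −0.36 and −0.71 with median-of-ratios scaling. MYC was at 232 and 226 TPM in vehicle, at 69.4 and 71.7 TPM with Drug_0120 and 89.5 and 97.9 TPM with Drug_CN27, changes of −1.68 and −1.28 log2 (SE 0.06 each). NHP2, a core protein of the ribonucleoproteins that modify ribosomal RNA, went from 349.95 and 359.6 TPM to 127 and 133 TPM and to 153 and 156 TPM. NOP16, a nucleolar protein of the large subunit pathway, went from 168 and 183 TPM to 65.0 and 67.2 TPM and to 82.2 and 86.6 TPM. All 3 were lower with Drug_0120 than with Drug_CN27 in every library. FBL, the methyltransferase fibrillarin, was shared but fell by just under the strong limit with Drug_CN27, from 617 and 624 TPM to 218 and 236 TPM with Drug_0120 and 301 and 321 TPM with Drug_CN27. NOP2, an RNA methyltransferase of the same pathway, showed the opposite order, with 52.2 and 47.1 TPM with Drug_0120 and 37.7 and 35.5 TPM with Drug_CN27 against 77.9 and 95.5 TPM in vehicle.

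The E-box CACGTG, which reads the same on both strands, was found in 12 of 25 promoters of the shared falls of this list (48.0%), in 17 of 42 promoters of the whole list (40.5%), in 10.2% of the promoters of tested genes and in 7.43% of all promoters in the table. The promoter of FBL is shown as a member with 1 match, in capitals, at 6 bases past the start, over the same window, source and build as above.
FBL, chr19:39846330-39846629, minus strand: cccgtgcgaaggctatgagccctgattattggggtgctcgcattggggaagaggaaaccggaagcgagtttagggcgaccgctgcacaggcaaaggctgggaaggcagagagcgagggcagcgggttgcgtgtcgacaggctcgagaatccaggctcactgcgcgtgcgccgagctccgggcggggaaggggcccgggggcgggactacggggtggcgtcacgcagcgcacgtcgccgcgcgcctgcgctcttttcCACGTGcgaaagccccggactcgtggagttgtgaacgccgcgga
The match lies just inside the transcribed part of the window.

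**Figure D3:**
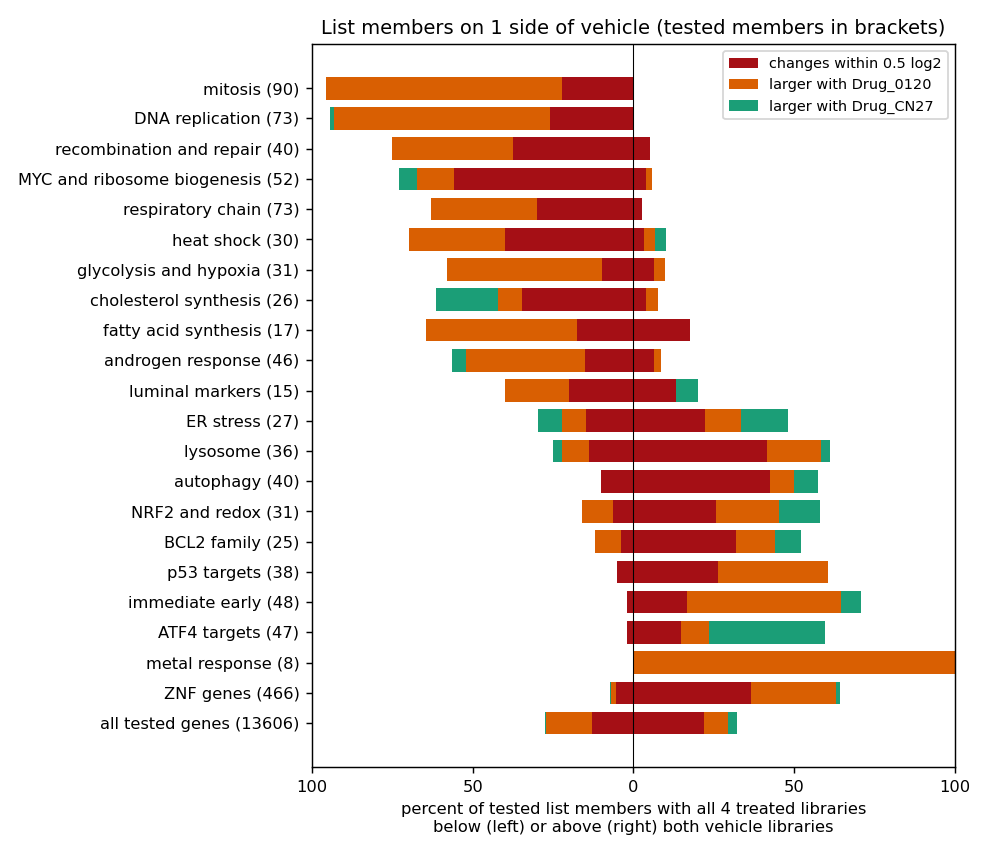
Share of the tested members of each list with all 4 treated libraries below (left) or above (right) both vehicle libraries, in percent, split by whether the 2 changes were within 0.5 log2 or larger with 1 compound, with the number tested in brackets. The mitosis bar reaches 95.6% to the left with 22.2% within the limit, MYC and ribosome biogenesis 73.1% with 55.8%, and autophagy 57.5% to the right with 42.5%, beside 27.6% and 32.4% for all tested genes.

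Sterol synthesis held 3 strong shared falls that follow one another closely in size. FDPS, which makes farnesyl diphosphate, was at 372 and 383 TPM in vehicle, at 107 and 109.5 TPM with Drug_0120 and 135 and 142 TPM with Drug_CN27. EBP, a sterol isomerase, went from 125 and 132 TPM to 37.4 and 39.7 TPM and to 40.7 and 43.8 TPM, and ACAT2, the cytosolic thiolase at the start of the pathway, from 46.8 and 47.1 TPM to 10.9 and 10.2 TPM and to 13.8 and 13.8 TPM. Of 26 tested genes, 9 were shared falls (34.6%) and 1 was a shared rise (3.85%), beside 12.9% and 22.1% of all tested genes. Limma called 20 lower and 2 higher, beside 37.9% and 40.3% of all tested genes. DHCR7, which catalyses the last step to cholesterol, was a shared fall that was larger with Drug_CN27, at 63.3 and 69.5 TPM against 91.0 and 95.5 TPM with Drug_0120 and 162 and 162 TPM in vehicle. In fatty acid metabolism FASN, the fatty acid synthase, fell from 461 and 463 TPM to 169 and 159 TPM and to 135 and 149 TPM, while ACSL1, an acyl-CoA ligase, rose from 21.9 and 22.5 TPM to 73.4 and 69.2 TPM and to 61.7 and 58.5 TPM. ME1, which supplies NADPH, also rose, from 3.21 and 3.35 TPM to 8.60 and 9.38 TPM and to 12.9 and 11.7 TPM. These 3 were the strong shared members of 17 tested, among which 3 were shared rises and 3 shared falls (17.6% each). The shares of all tested genes were 22.1% and 12.9%.

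Androgen-response genes were mostly lower, with shared falls near the share of all tested genes. Limma called 33 of 46 lower and 4 higher, beside 37.9% and 40.3% of all tested genes. All 4 treated libraries lay below vehicle for 26 (56.5%, beside 27.6%). Shared falls numbered 7 (15.2%, beside 12.9% of all tested genes) and shared rises 3 (6.52%, beside 22.1%). STEAP1, a metalloreductase of the prostate cell surface, was the 1 strong shared member, from 101 and 101 TPM in vehicle to 30.4 and 28.9 TPM with Drug_0120 and 38.5 and 34.9 TPM with Drug_CN27. KRT8, a luminal keratin, was a weaker shared fall, from 722 and 788 TPM to 441 and 460.3 TPM and to 482 and 529 TPM. The luminal markers as a list did not fall with both compounds. Of 15 tested, 3 were shared falls and 2 were shared rises. The median change of these 15 was −0.57 log2 with Drug_0120 and 0.048 with Drug_CN27. FKBP5, a chaperone cofactor and androgen receptor target, changed by −2.99 with Drug_0120 and −2.10 log2 with Drug_CN27, and KLK3, which encodes prostate-specific antigen, by −2.35 and −1.12 in the same order, so neither counted as shared.

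Genes of the mitochondrial respiratory chain and of protein folding held shared falls of moderate size and, with TPM as deposited, no strong shared gene. Of 73 tested respiratory genes, 22 were shared falls (30.1%) and 2 shared rises (2.74%), beside 12.9% and 22.1% of all tested genes. With median-of-ratios scaling 38 were shared falls (52.1%, beside 17.6% of all tested genes), 3 of them strong. UQCR10, a subunit of complex III, went from 245 and 259 TPM in vehicle to 113 and 128 TPM with Drug_0120 and 121 and 134 TPM with Drug_CN27. The list's medians were −0.80 log2 with Drug_0120 and −0.25 with Drug_CN27. Of 30 heat shock and chaperonin genes, 12 were shared falls and 1, HSF1, was a shared rise. HSPD1, the mitochondrial chaperonin, went from 1192 and 1157 TPM to 634 and 620.2 TPM and to 677 and 622 TPM, with overlapping treated libraries. HSF1, the heat shock transcription factor, went from 76.4 and 84.5 TPM to 103 and 105 TPM and to 109 and 125 TPM. Among 31 genes of glycolysis and the hypoxia response, 3 were shared falls (9.68%) and 2 shared rises (6.45%), beside 12.9% and 22.1% over all. VEGFA, the vascular growth factor, was the strong one, from 60.6 and 53.7 TPM to 180.3 and 173 TPM and to 187 and 226 TPM.

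The largest shared rises came from genes of varied function. S100P, a calcium-binding protein of the S100 family, was at 20.8 and 23.1 TPM in vehicle, at 228 and 253 TPM with Drug_0120 and 203 and 238 TPM with Drug_CN27. The treated libraries overlapped and the changes were 3.39 and 3.27 log2 (SE 0.09 each), the largest in size among the strong shared rises with a mean of at least 5 TPM. AC068580.4, a clone name with no further annotation and so left out of the named genes, came second with changes of 2.98 and 2.59 log2 (SE 0.46 each). ETV5, an ETS transcription factor downstream of growth factor signalling, went from 9.99 and 8.57 TPM to 56.5 and 52.3 TPM and to 59.7 and 56.7 TPM. EPAS1, the oxygen-sensitive subunit of a hypoxia-inducible factor, went from 2.13 and 2.18 TPM to 17.4 and 17.9 TPM and to 14.8 and 16.0 TPM. SSTR5, a somatostatin receptor, went from 3.85 and 4.43 TPM to 24.3 and 24.0 TPM and to 27.1 and 29.97 TPM, higher with Drug_CN27 in both libraries. ABHD4, a lipid hydrolase, showed the most equal response of the leading rises, from 10.1 and 11.5 TPM to 52.4 and 49.8 TPM and to 48.8 and 53.9 TPM, changes of 2.15 and 2.15 log2. CTGF, a matricellular protein, and CFAP70, an axonemal protein, rose from 1.46 to 2.13 TPM in vehicle to between 9.88 and 14.3 TPM, and both met the strong definition in 2 of the 4 scalings. HIST1H3E, a histone H3 gene, went from 1.02 and 1.06 TPM to 12.2 and 11.2 TPM and to 8.53 and 7.74 TPM, strong only with TPM as deposited, and KRTAP5-1, a hair keratin-associated protein, from 2.65 and 2.18 TPM to 14.0 and 15.2 TPM and to 12.1 and 14.7 TPM. Both have close copies in the genome, so their reads could have been split or misassigned and their values are uncertain.

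ATF4 was a strong shared rise. In a list of ATF4 targets that also holds ATF4 itself, 7 of 47 tested genes were shared rises (14.9%, beside 22.1% of all tested genes). ATF4 itself, already abundant, was at 458 and 475 TPM in vehicle, at 1198 and 1234.5 TPM with Drug_0120 and 1119 and 1198 TPM with Drug_CN27, changes of 1.38 and 1.31 log2 (SE 0.06 each). TRIB3, a pseudokinase that restrains ATF4, went from 73.1 and 78.7 TPM to 269.6 and 278 TPM and to 319 and 344 TPM. DDIT3, the stress factor CHOP, went from 68.2 and 73.7 TPM to 212 and 240.2 TPM and to 181 and 184 TPM, and ATF3 from 47.4 and 38.8 TPM to 266 and 228 TPM and to 186 and 180.1 TPM. TRIB3 was higher with Drug_CN27 and the other 2 were higher with Drug_0120 in every library; DDIT3 met the strong definition in 2 of 4 scalings and ATF3 only with TPM as deposited. These 4, ATF4 included, were the strong shared members of the 47 tested genes of the list. Limma called 41 of the 47 higher and 6 lower, beside 40.3% and 37.9% of all tested genes. All 4 treated libraries lay above vehicle in 28 (59.6%, beside 32.4%). Of these 28, 7 were the shared rises, 4 rose more with Drug_0120 and 17 more with Drug_CN27. The list's medians, 0.53 log2 with Drug_0120 and 1.89 with Drug_CN27, lay further apart than those of the autophagy list. GDF15, a secreted stress factor, rose with both by 5.19 and 2.94 log2 and is not shared.

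**Figure D4:**
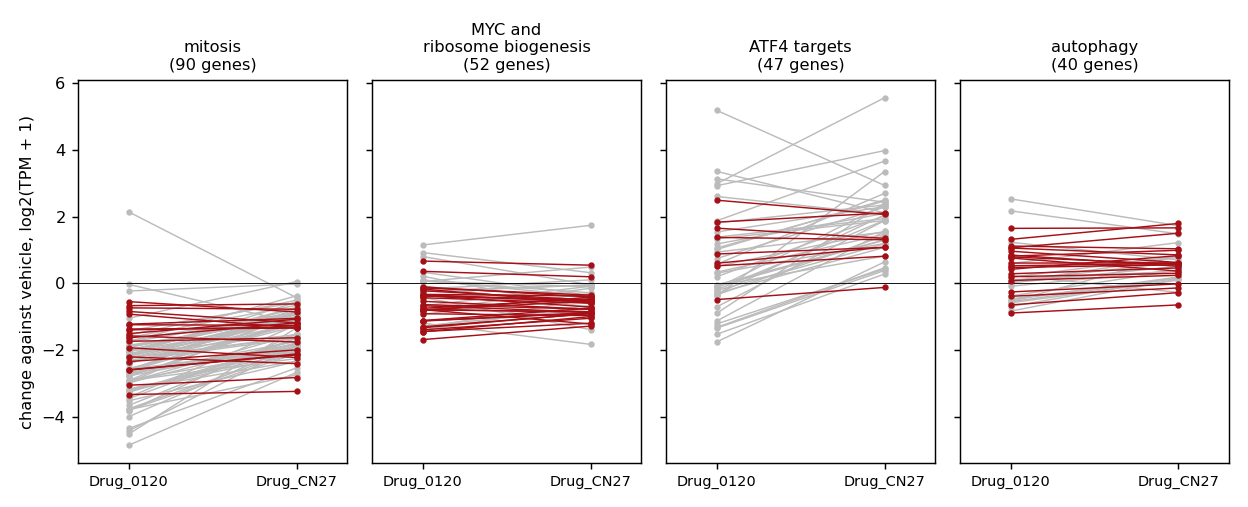
Change against vehicle, on the log2(TPM + 1) scale, with Drug_0120 (left) and Drug_CN27 (right) for each tested member of 4 lists, 1 line per gene, in red where the gene was shared. Most mitosis lines run upwards and unshared, from a median of −2.36 to −1.27, while 29 of 52 lines for MYC and ribosome biogenesis are shared falls and 17 of 40 autophagy lines are shared rises.

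Autophagy genes held a larger share of shared rises than all tested genes. Closeness of the 2 compounds in these follows from the 0.5 log2 limit. Of 40 tested, limma called 27 higher and 8 lower, beside 40.3% and 37.9% of all tested genes. Shared rises numbered 17 (42.5%, beside 22.1% of all tested genes) and shared falls 4 (10.0%, beside 12.9%). The list's median change was 0.22 log2 with Drug_0120 and 0.54 with Drug_CN27. With the smaller change at least 0.7 of the larger, 10 of the 40 were shared rises. By that rule 11 of 47 genes of the ATF4 list and 11.4% of all tested genes were shared rises. SQSTM1, the cargo receptor p62, was at 92.7 and 98.9 TPM in vehicle, at 303 and 303 TPM with Drug_0120 and 299.8 and 313 TPM with Drug_CN27, changes of 1.65 and 1.67 log2 (SE 0.06 each). GABARAPL1, which is conjugated to autophagosome membranes, went from 18.6 and 15.4 TPM to 43.4 and 44.3 TPM and to 60.6 and 62.2 TPM, and CALCOCO2, another cargo receptor, from 43.1 and 39.1 TPM to 85.8 and 88.4 TPM and to 124 and 113 TPM. Both were higher with Drug_CN27 in every library. ATG12, part of the conjugation machinery, went from 30.9 and 30.2 TPM to 69.4 and 65.7 TPM and to 70.2 and 57.7 TPM, and met the strong definition in 2 of 4 scalings. TFEB, a master regulator of autophagy and lysosome genes, was among the shared falls, from 17.0 and 20.5 TPM to 9.29 and 10.0 TPM and to 10.4 and 12.9 TPM, whereas its relative TFE3 was a shared rise, from 24.4 and 25.2 TPM to 43.3 and 44.2 TPM and to 36.5 and 38.1 TPM.

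Lysosomal genes followed with 15 shared rises (41.7%) and 5 shared falls (13.9%) among 36 tested, beside 22.1% and 12.9% of all tested genes. PSAP, the precursor of sphingolipid activator proteins, went from 375 and 382 TPM in vehicle to 707 and 698 TPM with Drug_0120 and 725 and 744 TPM with Drug_CN27, and LAMP2, a lysosomal membrane protein, from 41.9 and 40.3 TPM to 107 and 97.5 TPM and to 85.3 and 71.2 TPM. The 1 strong shared member, CTSK, was low, at 2.63 and 1.61 TPM in vehicle and 5.38 to 7.99 TPM after treatment, and met the strong definition in 2 of 4 scalings. In the NRF2 and redox list, 8 of 31 tested genes were shared rises (25.8%), near the 22.1% of all tested genes. Its strong shared members were SQSTM1, ME1 and HMOX1, the heme oxygenase, which went from 18.8 and 21.4 TPM to 85.9 and 93.5 TPM and to 71.2 and 76.6 TPM. All 8 tested metal-response genes lay above vehicle in the 4 treated libraries, beside 32.4% of all tested genes. None was shared, because the change of each was larger with Drug_0120 by over 0.5 log2.

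Immediate early and growth factor feedback genes held 8 shared rises among 48 tested (16.7%, beside 22.1% of all tested genes), 5 of them strong. ATF3 and CTGF are described above. HES1, a Notch-responsive repressor, went from 29.6 and 33.6 TPM in vehicle to 66.3 and 73.5 TPM with Drug_0120 and 95.4 and 99.2 TPM with Drug_CN27. SPRY4, a feedback inhibitor of receptor tyrosine kinase signalling, went from 6.48 and 5.43 TPM to 14.98 and 15.1 TPM and to 15.1 and 16.1 TPM. KLF2, a Krüppel-like factor, went from 2.82 and 3.11 TPM to 7.83 and 7.62 TPM and to 6.64 and 7.32 TPM, and met the strong definition in 2 of 4 scalings. Limma called 45 of the 48 higher and 1 lower after treatment, beside 40.3% and 37.9% of all tested genes. The list's medians were 1.84 log2 with Drug_0120 and 0.74 with Drug_CN27. Among p53 targets 10 of 38 were shared rises (26.3%, near the 22.1% of all tested genes) and 2 shared falls (5.26%, beside 12.9%). With median-of-ratios scaling 5 were shared rises (13.2%, beside 17.3% of all tested genes), and with quantile normalization 6 (15.8%, beside 19.4%). The 1 strong shared member was TP53INP1, a stress protein linked to autophagy, from 18.1 and 16.1 TPM to 96.2 and 87.6 TPM and to 76.4 and 66.3 TPM. TP53INP1 met the strong definition only with TPM as deposited.

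Smaller groups held mixed shared changes. Of 27 genes of the endoplasmic reticulum stress response, 6 were shared rises (22.2%) and 4 shared falls (14.8%), close to the 22.1% and 12.9% of all tested genes. SDF2L1, a chaperone partner in the endoplasmic reticulum, fell from 167 and 184 TPM to 62.4 and 63.5 TPM with Drug_0120 and 60.5 and 76.1 TPM with Drug_CN27, and CRELD2, another protein of that compartment, from 267 and 301 TPM to 112 and 116 TPM and to 125 and 131 TPM. ERN1, the stress sensor IRE1, rose from 7.35 and 6.52 TPM to 25.5 and 23.0 TPM and to 17.1 and 17.0 TPM, strong only with TPM as deposited. In the BCL2 family and its partners, 8 of 25 tested genes were shared rises (32.0%, beside 22.1%) and 1, BCL2L12, was a shared fall, from 88.5 and 95.2 TPM to 41.1 and 46.0 TPM and to 37.7 and 40.05 TPM, also strong only with TPM as deposited. Among 22 genes of the interferon response and antigen presentation, 6 were shared rises (27.3%, beside 22.1%) and 0 shared falls, and IRF7, a regulator of interferon genes, was the strong one, from 5.36 and 6.77 TPM to 17.4 and 16.9 TPM and to 21.2 and 24.5 TPM. None of the 4 tested linker histone genes was shared. H1FX, the gene of H1-10, was at 450.4 and 464 TPM in vehicle, at 176 and 191 TPM with Drug_0120 and 401 and 433 TPM with Drug_CN27, changes of −1.31 and −0.13 log2 (SE 0.06 each).

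Zinc finger genes of the ZNF series, a list chosen after the data were seen, held shared rises whose number depended on the scaling. Of 466 tested, 170 were shared rises (36.5%, beside 22.1% of all tested genes) and 26 shared falls (5.58%, beside 12.9%). With 2 of the 3 other scalings, however, the list's share of shared rises was no higher than that of all tested genes. With median-of-ratios scaling 80 were shared rises (17.2%, beside 17.3% of all tested genes), with quantile normalization 79 (17.0%, beside 19.4%), and with the table rescaled to a common total 129 (27.7%, beside 22.7%). The strong shared members were 25 rises (5.36%) and 1 fall (0.215%), beside 2.08% and 1.53% of all tested genes with TPM as deposited. ZNF528 had the largest mean change among them, from 4.55 and 4.80 TPM in vehicle to 26.7 and 24.9 TPM with Drug_0120 and 23.6 and 21.8 TPM with Drug_CN27. Many ZNF genes lie in tandem on chromosome 19 as close relatives, so their reads may be shared between them. Of the 283 strong shared rises, 36 were on chromosome 19 (12.7%), as were 23 of the 208 strong shared falls (11.1%) and 8.03% of all tested genes.

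The strong shared rises and falls also differed in composition, length and starting level. The median GC content of the strong shared rises was 46.0% and that of the strong shared falls 54.2%, beside 49.5% for all tested genes. Median transcript length was 3641 bases for the rises, 2456 for the falls and 3301 for all tested genes. The strong shared rises had a median of 7.34 TPM in vehicle and the falls 25.3 TPM, beside 19.5 TPM over all, and on this scale a fall of 1 log2 can only start from 1 TPM or more. The part of these properties in the shared response was not tested. With the GC trend of each compound's mean change against vehicle removed, 278 strong rises and 199 strong falls were counted.

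At the edge of the similarity limit, KCNN2, a potassium channel, lay just inside with changes of −1.52 and −1.02 log2 and levels of 11.3 and 11.7 TPM in vehicle, at 3.53 and 3.20 TPM with Drug_0120 and 5.24 and 5.07 TPM with Drug_CN27. CCKBR, the cholecystokinin and gastrin receptor, was also inside, from 2.46 and 2.20 TPM to 0 and 0 TPM and to 0.383 and 0.441 TPM. CD55, a complement regulator, and KLF10, a transcription factor of the TGF-beta response, lay just outside with changes of 1.86 and 1.36 log2 and of 1.44 and 1.94 log2. The limit thus parted genes whose difference between the compounds was nearly the same in size.

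The strong shared genes were chosen and read in the same libraries. As a description added after the data were seen, genes were also chosen in the replicate 1 libraries alone and read in replicate 2. Separate cultures are not stated, so agreement between replicate numbers may be technical and supports nothing about independent repeats. Of 303 rises chosen in replicate 1, 299 were higher with both compounds in replicate 2, and 194 met all the strong conditions there. Of 232 falls chosen in replicate 1, 224 were lower with both compounds in replicate 2, and 165 met all conditions. Chosen in replicate 2, 267 of 269 rises and 226 of 228 falls kept their direction in replicate 1. The median changes read in replicate 2 were 1.35 and 1.21 log2 for the rises and −1.504 and −1.27 log2 for the falls, with Drug_0120 and Drug_CN27 in that order.

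The balance of strong rises and falls depended on the scaling of the libraries. With TPM as deposited 57.6% of the strong shared genes were rises, with median-of-ratios scaling 33.8% (173 rises and 339 falls), with quantile normalization 37.7% (198 and 327), and with the table rescaled to a common total 57.1% (318 and 239). Strong in all 4 scalings, a count added after the data were seen, were 116 rises and 163 falls, among them CCNB1, MYC, FDPS, S100P, ATF4 and SQSTM1. Of the 62 strong shared genes named by rule, 40 were strong in all 4 and 6 only with TPM as deposited. Of the shared genes of any size, 1752 rises and 1307 falls were shared in all 4.

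**Figure D5:**
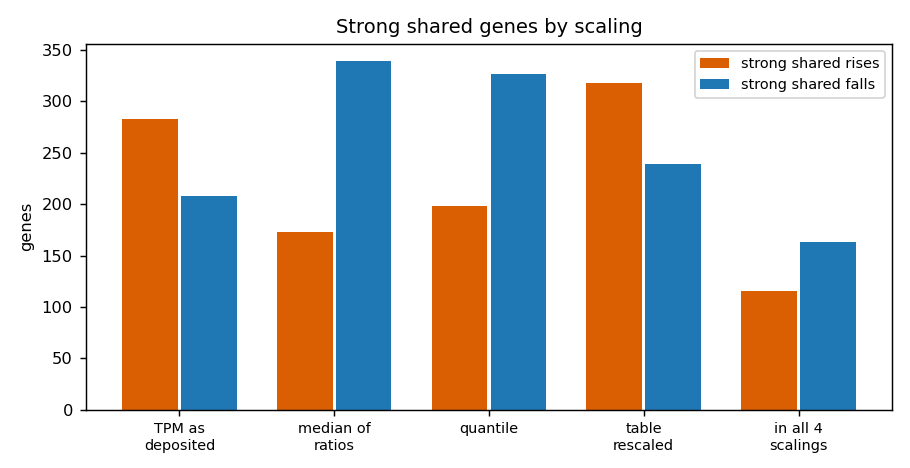
Number of strong shared rises and falls (vertical axis, genes) with TPM as deposited, under 3 other scalings of the libraries, and in all 4 together. Rises outnumber falls as deposited, 283 to 208, and falls outnumber rises with median-of-ratios scaling, 339 to 173.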

How the data were processed

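Polyadenylated RNA of 22Rv1 cells was measured in 6 libraries, grouped by their labelled treatment. Values are TPM as deposited by the authors; the submitters' processing notes list STAR, StringTie and hg19, while versions, strand setting and annotation are not stated. TPM keeps no read depth, so counting error is unknown. Of 20315 rows, 18 duplicate pseudoautosomal entries were removed and 27 symbols turned into dates by a spreadsheet were restored. Genes that reached 1 TPM in 2 or more libraries were fitted on log2(TPM + 1) values with limma 3.58.1 in R 4.3.3, all 3 groups together (3 residual degrees of freedom), with Benjamini-Hochberg adjustment over 13606 genes at 0.05; the code was tested on simulated data. This scale understates fold changes of low genes. Separate cultures are not stated, so the p-values reflect spread between libraries that may be technical. The members, lists and tests were chosen with earlier results of these data known. Genes were named by rule: the 12 largest strong shared changes per direction with a mean of at least 5 TPM (clone names and pseudogenes left out), up to 5 strong members per list, 7 genes of prior interest and the 2 nearest each side of the similarity limit; weaker shared genes named with values were picked after their values were seen. Scalings, similarity limits, filters, pseudocounts and left-out libraries were varied. GENCODE 29 gave length and GC content, and RefSeq (GRCh38.p14) gave promoters for 10833 tested genes. Only 218 of 283 strong rises and 157 of 208 strong falls had a promoter, so motif shares are not given for those sets.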

Additional observations from a re-analysis of the deposited data

How the results depend on the processing

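The counts of shared and strong shared genes depended on how the genes were chosen and scaled. With a limit of 0.25 log2 there were 1833 shared rises, 959 shared falls, 163 strong rises and 113 strong falls, and with a limit of 1 log2 there were 2765 shared falls and 366 strong falls. Requiring the smaller change to be at least 0.7 of the larger gave 1545 shared rises and 856 shared falls. Limma calls in place of library positions gave 1378 and 664 shared and 170 and 113 strong. Median-of-ratios scaling gave 173 strong rises and 339 strong falls, quantile normalization gave 327 strong falls, and 116 strong rises met the definition in all 4 scalings. These follow from the stricter, looser or rescaled definitions themselves. With 1 library left out at a time, shared rises ranged from 3055 to 3310 and shared falls from 1795 to 1953. Fewer libraries make the condition on sides easier to meet, and all 6 libraries gave 3001 and 1751. Strong rises ranged from 268 to 332 and strong falls from 203 to 235. Limma calls of the treated mean ranged from 4778 to 5462 higher and from 4671 to 5142 lower. Groups share only replicate numbers, whose deviations correlated at 0.164, 0.150 and 0.110 between pairs of groups, each comparison having fewer than 3 pairs. In the fit with the replicate block, for the treated mean against vehicle, higher calls numbered 5733 (5484 without the block), and for the treated mean against vehicle, lower calls numbered 5396 (5160 without it). The other 96 recomputed counts stayed within 1.5 times. No named gene's mean change turned its sign, but the balance of strong rises to falls did with 2 scalings. The median change of all genes with Drug_0120 turned its sign with all 3 other scalings. It went from −0.104 as deposited to 0.003 with median-of-ratios scaling, 0.0536 with quantile normalization and 0.056 with the table rescaled. With Drug_CN27 it turned from 0.150 to −0.008 with median-of-ratios scaling only. Of the counts for single lists and values of single genes 1565 stayed within that range and 43 moved by more. Depth cannot be read from TPM, so low genes such as CCKBR have no known counting error.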

Other observations

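Of the 491 strong shared genes, 432 were in none of the 30 lists. The following were chosen from them after their values were seen, among genes that were strong in all 4 scalings. SRSF2, a splicing factor of the SR family, went from 277 and 279 TPM in vehicle to 80.1 and 73.4 TPM with Drug_0120 and 98.3 and 101 TPM with Drug_CN27. HNRNPD, which binds AU-rich RNA, went from 400.3 and 378 TPM to 123 and 139 TPM and to 168 and 167 TPM, and ALYREF, an mRNA export adaptor, from 309.8 and 317 TPM to 109.9 and 122 TPM and to 144 and 152 TPM. PTMA, the acidic chromatin protein prothymosin alpha, was the most abundant of those described, at 2579 and 2535 TPM in vehicle, at 564 and 567 TPM with Drug_0120 and 747 and 699.7 TPM with Drug_CN27. All 4 genes were lower with Drug_0120 than with Drug_CN27 in every library.

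Chosen in the same way among the rises, EIF1, which helps select the start codon, went from 345 and 359 TPM in vehicle to 817 and 851 TPM with Drug_0120 and 1122 and 1100.3 TPM with Drug_CN27. OGT, the enzyme that adds N-acetylglucosamine to nuclear and cytoplasmic proteins, went from 45.4 and 44.4 TPM to 112 and 109 TPM and to 149 and 140.2 TPM. HBP1, a transcriptional repressor, went from 40.1 and 36.003 TPM to 116 and 111 TPM and to 111 and 106 TPM, with overlapping treated libraries.

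Fibroblast markers were low throughout and included 2 strong shared falls. COL3A1 went from 2.08 and 1.74 TPM to 0.20 TPM or less in all treated libraries, and DCN from 1.72 and 2.80 TPM to 0.23 TPM or less. The summed level of the 9 markers was 33.6 and 31.9 TPM in vehicle, at 30.3 and 28.8 TPM with Drug_0120 and 27.6 and 25.4 TPM with Drug_CN27, and 5 of the 9 were under 1 TPM in all 6 libraries.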
